A study of Mus musculus with 6 samples.

Results

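The genes of sterol synthesis and of the SREBP2 pathway were examined in BV2 cells exposed to sTREM-1. The group held 27 gene symbols out of 46095 in the count table, and all 27 were present. The genes were chosen by name as the enzymes from acetyl-CoA to cholesterol, the proteins that control SREBP2 and one sterol carrier, but the group was selected on measured values, because it was noticed from the difference between the same 6 libraries. The differences between groups given here for these genes are therefore a description and not a test.

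BV2 is a single immortalized line of mouse microglia, the resident macrophages of the brain. sTREM-1 is the soluble form of the triggering receptor expressed on myeloid cells 1, and it was given as recombinant protein. The 2 groups were untreated BV2 cells (CON group, 3 libraries) and BV2 cells given sTREM-1 at 1 μg/mL for 6 h (sTREM-1 group, 3 libraries), with no allele or other agent named for either. The labels give 3 numbered samples per group but do not say whether the cultures were independent. The p-values therefore measure the spread between these samples, which may be technical.

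Cells make cholesterol from acetyl-CoA through mevalonate, isoprenoid diphosphates, squalene and lanosterol, and branches of the same pathway feed protein prenylation, dolichol and ubiquinone. The transcription factor SREBP2 is made as a precursor in the endoplasmic reticulum. When sterols in that membrane are low, its escort SCAP carries it to the Golgi, where the site-1 and site-2 proteases release the active part, while sterol-bound INSIG proteins hold SCAP back. Active SREBP2 binds sterol regulatory elements in the promoters of most of the enzyme genes, usually beside sites for NF-Y or Sp1, and it also acts on its own gene and on Insig1. In microglia, sterol balance matters because the cells take up lipid-rich debris.

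The promoters of 4 genes are shown because the results come back to their motifs. They were read from RefSeq sequence of GRCm38.p6, from 250 bases before to 50 bases after the annotated start, 5′ to 3′ along the gene. Capitals mark the NF-Y motif CCAAT and the sterol regulatory element motif TCACNCCAC with up to 1 mismatch, on either strand. Hmgcs1 (chr13:119690101-119690400, plus strand) was the only one of 23 genes with a promoter in the table that held the exact motif, as TCACCCCAC at position -137 from the start. Those of Srebf2 (chr15:82147019-82147318, plus strand), Cyp51 (chr5:4104648-4104947, minus strand) and Insig1 (chr5:28071162-28071461, plus strand) were chosen after their values were seen, as examples with 1 mismatch. In these 4 promoters no capital motif overlapped another.
Hmgcs1: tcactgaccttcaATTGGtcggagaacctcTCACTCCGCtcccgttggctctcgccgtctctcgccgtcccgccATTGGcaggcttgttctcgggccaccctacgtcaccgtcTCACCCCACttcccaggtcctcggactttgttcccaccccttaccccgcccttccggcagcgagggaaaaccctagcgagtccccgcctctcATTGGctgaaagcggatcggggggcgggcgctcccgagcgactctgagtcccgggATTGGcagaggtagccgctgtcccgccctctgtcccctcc
Srebf2: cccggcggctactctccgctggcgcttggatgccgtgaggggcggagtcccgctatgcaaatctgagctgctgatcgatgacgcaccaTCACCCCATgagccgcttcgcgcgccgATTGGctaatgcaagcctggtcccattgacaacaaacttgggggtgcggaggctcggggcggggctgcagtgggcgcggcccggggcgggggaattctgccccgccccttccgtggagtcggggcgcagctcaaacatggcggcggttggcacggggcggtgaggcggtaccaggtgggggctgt
Cyp51: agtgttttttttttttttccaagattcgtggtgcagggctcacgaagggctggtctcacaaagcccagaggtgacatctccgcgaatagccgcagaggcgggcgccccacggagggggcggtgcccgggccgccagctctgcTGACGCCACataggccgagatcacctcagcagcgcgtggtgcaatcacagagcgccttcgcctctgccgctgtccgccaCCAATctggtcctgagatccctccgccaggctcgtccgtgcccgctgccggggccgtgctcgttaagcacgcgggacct
Insig1: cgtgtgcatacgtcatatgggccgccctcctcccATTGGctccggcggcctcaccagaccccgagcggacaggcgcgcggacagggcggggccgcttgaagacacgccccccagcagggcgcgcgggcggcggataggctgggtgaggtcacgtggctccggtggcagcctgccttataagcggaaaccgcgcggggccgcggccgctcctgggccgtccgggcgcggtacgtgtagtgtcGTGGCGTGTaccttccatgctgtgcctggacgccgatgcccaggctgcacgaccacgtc

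The libraries held between 40070633 and 45877107 counts, and 14120 genes had enough counts to be tested, among them all 27 sterol genes. Levels are given as counts per 1000000 counts of the library (CPM) after TMM scaling. A gene was called when the quasi-likelihood test of edgeR gave it a p-value under 0.05 after Benjamini-Hochberg adjustment over all 14120 genes. Of these, 30.5% were called, 16.5% as higher and 14.1% as lower in the sTREM-1 group, and the biological coefficient of variation was 3.99%, so small differences passed. Within a group, no pair of libraries agreed within sampling noise (chi-square per tested gene 3.45 to 4.99), so none looked like a library deposited again. Of 13 microglia and macrophage markers 12 were tested, and their summed level was 3328 to 3356 CPM in the CON group and 3590 to 3653 CPM in the sTREM-1 group. Of these, 4 were called higher, 1 lower (Fcer1g, 384.1 ± 4.67 to 347.5 ± 4.97 CPM) and 7 were not called. Most of the difference in the sum lay in Csf1r (520.7 ± 3.13 to 752.9 ± 20.5 CPM), singled out after its values were seen, and without it the sums were 2805 to 2836 and 2831 to 2883 CPM. Aif1, a defining marker, was listed at 0 counts in all 6 libraries, and whether its reads could be counted is not known. Cx3cr1, P2ry12 and Tmem119 were near 1 CPM. Summed levels of 5 neuron markers stayed at or under 0.277 CPM, of 5 astrocyte markers at or under 1.1 CPM, of 4 fibroblast markers at or under 0.512 CPM and of 4 oligodendrocyte markers between 5.58 and 7.91 CPM. The 13 mitochondrial messenger RNAs took 1.57% to 1.65% of the counts in the CON group and 1.73% to 1.74% in the sTREM-1 group. The part of the Csf1r and mitochondrial differences in the results on sterol genes was not tested. In bulk RNA, a change in the share of cells that express a gene and a change in RNA per cell cannot be told apart.

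Compared with the CON group, most sterol genes were higher in the sTREM-1 group, by modest amounts. 21 of the 27 were called higher and 6 were not called, beside the 16.5% of all tested genes called higher. None was called lower by edgeR's quasi-likelihood test, none was lower at an unadjusted p-value under 0.05, and none was called lower in DESeq2. Since this contrast chose the genes, nothing is read from these counts. The median log2 fold change was 0.38, or 1.31-fold, against -0.0017 over all tested genes. Values of the sterol genes ran from -0.021 for Ggps1 to 0.88 for Acat2, 25 of 27 were above 0, and 4 reached 1.5-fold (Acat2, Stard4, Fdps and Cyp51). 11 of them lay in the top 5% of tested genes by log2 fold change, a share that began at 0.42. In 23 of the 27 the 2 groups did not overlap, which was also the case for 40.7% of all tested genes. Nothing is read from that count either.

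**Figure D1:**
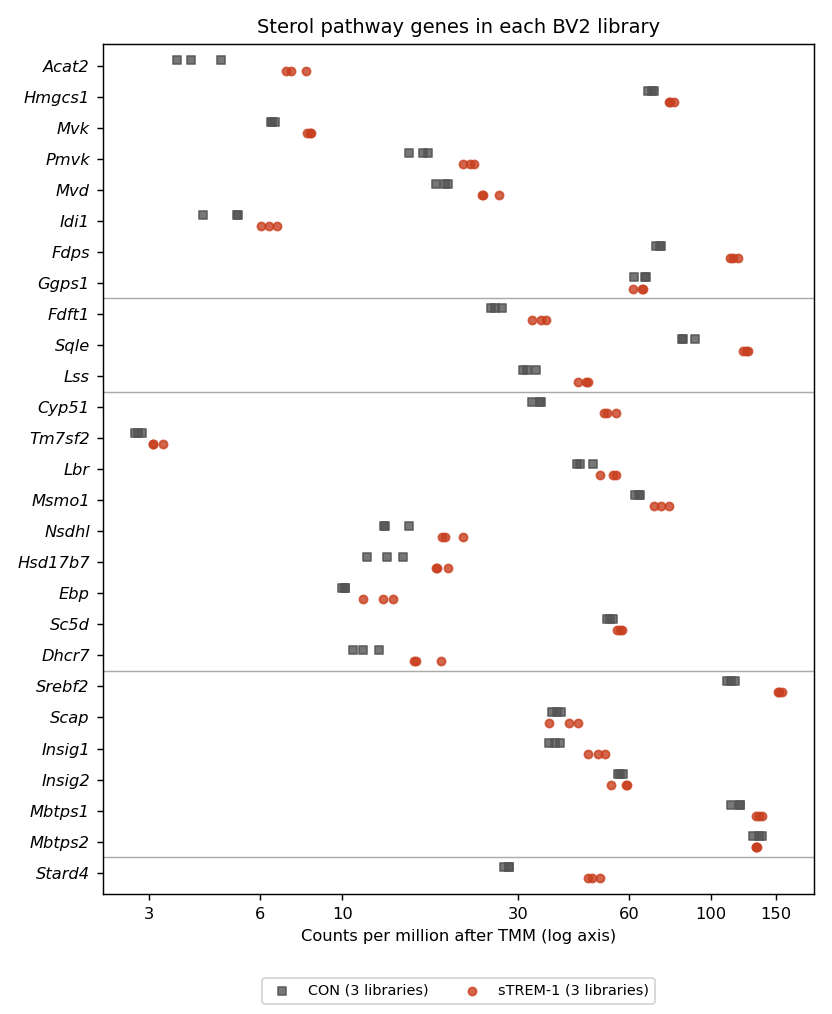
Level of each of the 27 sterol genes in CPM after TMM (log axis) in the 3 CON libraries (grey squares) and the 3 sTREM-1 libraries (red circles), with grey lines between the role groups. The groups are apart in 23 genes and overlap in Ggps1, Scap, Insig2 and Mbtps2.

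The direction was shared by the libraries of a group. Relative to the mean of the CON group, the median log2 ratio of the 27 genes was -0.013, 0.0023 and 0.018 in the CON libraries and 0.38, 0.35 and 0.41 in the sTREM-1 libraries. The number of genes above their CON mean was 24, 25 and 26 of 27 in sTREM-1 replicates 1, 2 and 3. In CON replicates 1, 2 and 3 that number was 12, 15 and 17. Over all tested genes the median log2 ratio was -0.0013, -0.0016 and -0.0022 in the sTREM-1 libraries. Since this contrast chose the genes, nothing is read from these counts, and the matching share over all tested genes was not computed. The summed level of the 20 enzymes was 648.0 ± 7.04 CPM in the CON group and 836.5 ± 7.4 CPM in the sTREM-1 group (SD, n = 3 each), 1.29-fold higher. No sTREM-1 library stood apart from the other two in these sums.

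**Figure D2:**
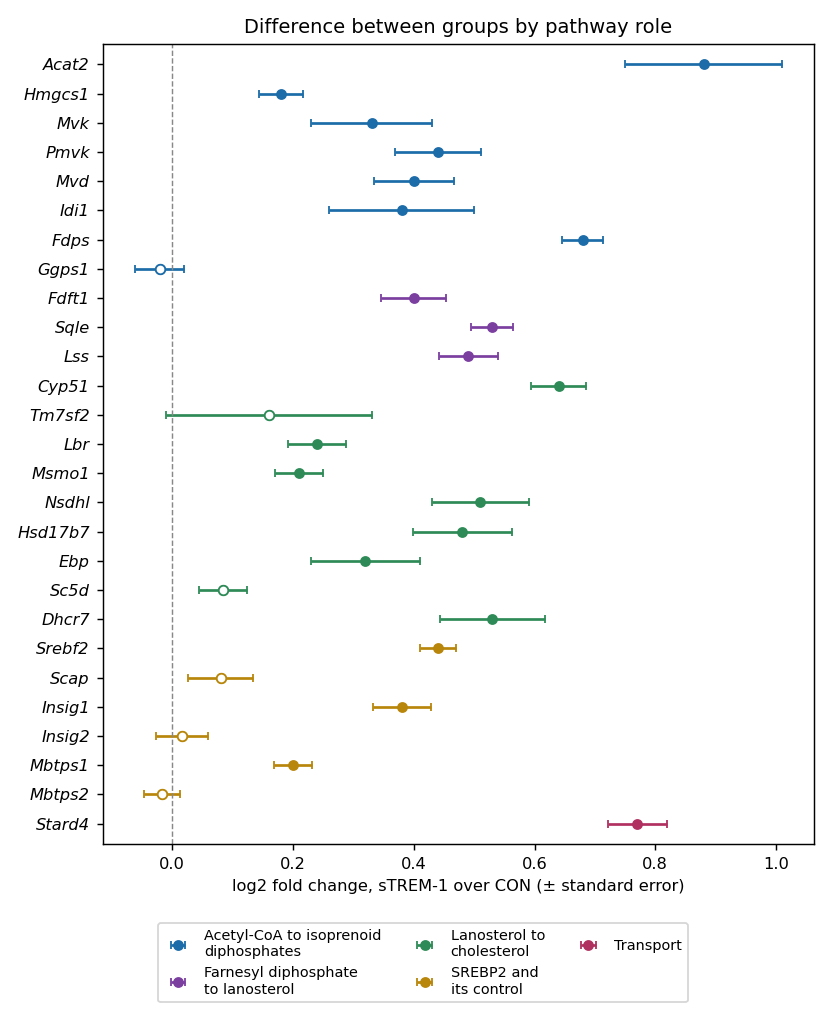
Log2 fold change of the 27 sterol genes, sTREM-1 over CON, with the standard error of the fit as bars, coloured by role in the pathway. Filled circles were called higher and white-filled circles were not called. The 6 white-filled genes are Ggps1, Tm7sf2, Sc5d, Scap, Insig2 and Mbtps2.

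The first 8 enzymes lead from acetyl-CoA through mevalonate to farnesyl and geranylgeranyl diphosphate, and 7 of them were called higher, with a median log2 fold change of 0.39. Acat2, the cytosolic thiolase that joins 2 acetyl-CoA molecules, was the sterol gene with the largest fold change and also a weakly expressed one. It was at 3.88, 3.56 and 4.70 CPM in the CON libraries and at 7.25, 7.06 and 7.99 CPM in the sTREM-1 libraries. The lowest sTREM-1 library lay above the highest CON library, and the log2 fold change was 0.88 ± 0.13 (SE). These levels rested on 146 to 192 counts per CON library and 301 to 331 counts per sTREM-1 library. Acat2 has a near-identical copy, Acat3, and how reads shared by both were counted is not given in the sources used here, so its values are uncertain to that extent. Fdps, which makes farnesyl diphosphate, the branch point to sterols and to prenyl groups, combined a high level with a large change. It was at 73.1, 70.8 and 72.9 CPM in the CON libraries and at 118.4, 115.0 and 112.8 CPM in the sTREM-1 libraries. The spread within each group was a small part of the difference, which was 0.68 ± 0.034 on the log2 scale.

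Pmvk and Mvd catalyse the phosphomevalonate kinase and mevalonate diphosphate decarboxylase steps. Pmvk was at 16.6, 15.2 and 17.1 CPM in the CON libraries and at 21.2, 22.2 and 22.8 CPM in the sTREM-1 libraries, a log2 fold change of 0.44 ± 0.071. Mvd was at 18.0, 19.0 and 19.4 CPM and then at 24.1, 23.9 and 26.6 CPM, a log2 fold change of 0.40 ± 0.066. The groups did not overlap in either gene.

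The remaining enzymes of this segment differed less. Hmgcs1, the HMG-CoA synthase, was higher by 0.18 ± 0.036, from 68.7 ± 1.39 to 77.9 ± 1.24 CPM (SD, n = 3 each). Mvk, the mevalonate kinase, was higher by 0.33 ± 0.10, from 6.48 ± 0.069 to 8.16 ± 0.101 CPM. Idi1, which isomerizes isopentenyl diphosphate, was higher by 0.38 ± 0.12, from 4.87 ± 0.580 to 6.33 ± 0.324 CPM. Idi1 was the called gene that depended on single libraries, since it was not called without CON replicate 1 (0.28) or without sTREM-1 replicate 1 (0.34). Ggps1, which makes geranylgeranyl diphosphate for protein prenylation and so lies off the route to cholesterol, was not called. Its level was 64.9 ± 2.71 CPM in the CON group and 64.0 ± 2.18 CPM in the sTREM-1 group, a log2 fold change of -0.021 ± 0.041. Ggps1 overlaps Arid4b on the opposite strand.

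All 3 enzymes from farnesyl diphosphate to lanosterol were called higher, with a median log2 fold change of 0.49. Sqle, the squalene epoxidase and a rate-limiting enzyme of the later pathway, was at 83.2, 90.6 and 84.0 CPM in the CON libraries and at 121.9, 125.7 and 124.4 CPM in the sTREM-1 libraries. The sTREM-1 libraries lay close together and well above all CON libraries, with a log2 fold change of 0.53 ± 0.035. Lss, which closes the ring system to give lanosterol, was at 31.0, 31.7 and 33.6 CPM in the CON libraries and at 43.6, 46.4 and 45.7 CPM in the sTREM-1 libraries. Its log2 fold change was 0.49 ± 0.049. Fdft1, the squalene synthase and the first enzyme committed to sterols, was at 27.1, 25.9 and 25.3 CPM in the CON libraries and at 35.6, 32.8 and 34.6 CPM in the sTREM-1 libraries, a log2 fold change of 0.40 ± 0.054. Fdft1 overlaps the opposite-strand gene Ctsb, so without strand information its reads and those of Ctsb could not be told apart where they overlap. No groups overlapped among these 3 genes.

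Of the 9 enzymes from lanosterol to cholesterol, 7 were called higher, with a median log2 fold change of 0.32. Cyp51, the lanosterol demethylase, was at 32.8, 34.7 and 34.4 CPM in the CON libraries and at 52.4, 55.3 and 51.4 CPM in the sTREM-1 libraries. Its log2 fold change of 0.64 ± 0.046 was the largest of this segment, and the groups were far apart. Cyp51 overlaps Akap9 on the opposite strand. Dhcr7, the 7-dehydrocholesterol reductase, was at 11.4, 10.7 and 12.6 CPM in the CON libraries and at 15.7, 15.9 and 18.5 CPM in the sTREM-1 libraries, a log2 fold change of 0.53 ± 0.087. Nsdhl and Hsd17b7 act in the removal of the methyl groups at carbon 4 of the sterol. Nsdhl was at 15.2, 13.0 and 13.1 CPM in the CON libraries and at 18.6, 19.0 and 21.2 CPM in the sTREM-1 libraries, a log2 fold change of 0.51 ± 0.080. Hsd17b7 was at 13.2, 14.6 and 11.7 CPM and then at 18.1, 18.0 and 19.3 CPM, a log2 fold change of 0.48 ± 0.082. In the CON group both varied more than Cyp51 relative to their means, and neither had overlapping groups.

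The other members of this segment had smaller differences. Ebp, the sterol isomerase, was higher by 0.32 ± 0.090, from 10.1 ± 0.106 to 12.6 ± 1.16 CPM. Lbr, a protein of the inner nuclear membrane that also reduces the sterol C14 double bond, was higher by 0.24 ± 0.048, from 45.1 ± 2.58 to 53.1 ± 2.91 CPM. Msmo1, the C4-methyl sterol oxidase, was higher by 0.21 ± 0.040, from 63.5 ± 0.951 to 73.5 ± 3.49 CPM. Tm7sf2, the second C14 sterol reductase, was not called, with 2.80 ± 0.0654 CPM in the CON group, 3.13 ± 0.110 CPM in the sTREM-1 group and a log2 fold change of 0.16 ± 0.17. Sc5d, the lathosterol desaturase, was also not called, with 53.4 ± 1.00 and 56.6 ± 0.765 CPM and a log2 fold change of 0.084 ± 0.040. The groups did not overlap in Tm7sf2 or Sc5d although neither passed the test. Tm7sf2 overlaps Vps51 on the same strand.

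Among the 6 genes of SREBP2 and its control, 3 were called higher and the median log2 fold change was 0.14. Srebf2, which encodes SREBP2 itself, was one of the most abundant of the sterol genes per exon length. It was at 116.3, 110.2 and 113.6 CPM in the CON libraries and at 155.9, 152.5 and 151.9 CPM in the sTREM-1 libraries. The log2 fold change was 0.44 ± 0.030, and the 2 groups were far apart. Insig1, which retains SCAP when sterols are ample, was at 38.9, 37.7 and 36.3 CPM in the CON libraries and at 51.5, 49.4 and 46.4 CPM in the sTREM-1 libraries, a log2 fold change of 0.38 ± 0.048. Its relative Insig2 was not called, at 56.7 ± 0.818 and 57.3 ± 3.16 CPM with a log2 fold change of 0.016 ± 0.043.

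Of the proteases that process SREBP2, the first was called higher and the second was not. Mbtps1, the site-1 protease, was at 120.2, 113.2 and 119.5 CPM in the CON libraries and at 132.5, 135.2 and 137.8 CPM in the sTREM-1 libraries. The groups did not overlap, and the log2 fold change was 0.20 ± 0.032. Mbtps2, the site-2 protease, was not called, at 134.2 ± 3.43 and 132.6 ± 0.446 CPM with a log2 fold change of -0.017 ± 0.030, and it overlaps Yy2 on the same strand. Scap, the escort, was at 38.3, 37.0 and 39.3 CPM in the CON libraries and at 41.3, 36.4 and 43.5 CPM in the sTREM-1 libraries. sTREM-1 replicate 2 was the lowest of all 6 libraries for Scap, and the log2 fold change of 0.080 ± 0.054 was not called, though it was called at 0.15 without that library.

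Stard4, which carries cholesterol between membranes, was the only transport protein in the group. It was at 27.4, 28.4 and 28.4 CPM in the CON libraries and at 47.5, 50.0 and 46.4 CPM in the sTREM-1 libraries. The log2 fold change of 0.77 ± 0.049 was exceeded only by that of Acat2 among the 27 genes, with a smaller error.

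Ratios between genes of neighbouring function were computed within each library from levels per kilobase of exon, which sets aside differences in library scale. The size of a ratio depends on the length used, while its comparison between groups does not. Per kilobase of mean transcript length, Insig1 was at 21.8 CPM in the CON group and 28.4 CPM in the sTREM-1 group. By that length Insig2 was at 72.4 and 73.2 CPM. As the ratios come from the contrast that chose the genes, they are given without a test. The ratio of Fdps to Ggps1, which stand at the branch between sterols and geranylgeranyl groups, was 1.33, 1.20 and 1.22 in the CON libraries and 2.16, 1.97 and 1.94 in the sTREM-1 libraries. The ratio of Insig1 to Insig2 was 0.773, 0.757 and 0.709 in the CON libraries and 1.08, 0.935 and 0.884 in the sTREM-1 libraries. The ratio of Srebf2 to Scap was 3.15, 3.09 and 2.99 in the CON libraries and 3.91, 4.34 and 3.62 in the sTREM-1 libraries. In these ratios every sTREM-1 library lay above every CON library. The same held for Mbtps1 to Mbtps2, at 0.884, 0.792 and 0.848 against 0.957, 0.981 and 0.993, with a narrower gap. In each of these pairs the first gene was called higher and the second was not called. The gaps therefore follow from differences given above, and nothing further is read from them. The ratio of Lbr to Tm7sf2, the alternative C14 reductases, overlapped between groups, at 14.9, 15.9 and 13.9 in the CON libraries and 16.7, 15.3 and 15.0 in the sTREM-1 libraries.

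**Figure D3:**
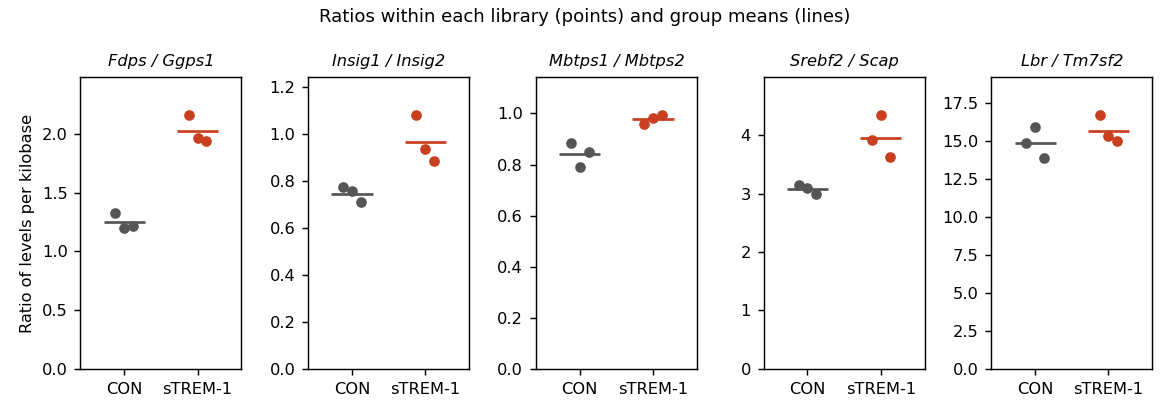
Ratio of levels per kilobase of exon for 5 pairs of sterol genes in each library, with points for libraries, lines for group means and axes that start at 0. The groups are apart for Fdps to Ggps1, Insig1 to Insig2, Mbtps1 to Mbtps2 and Srebf2 to Scap, and overlap for Lbr to Tm7sf2. The size of a ratio depends on the length used. The genes were chosen on this contrast.

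In untreated cells the sterol genes covered a wide range of levels per length, which the choice of genes did not use. In CPM per kilobase of exon in the CON group, Fdps was at 17.2 ± 0.299, Insig2 at 16.3 ± 0.236, Srebf2 at 15.8 ± 0.422, Sqle at 15.5 ± 0.730 and Hmgcs1 at 15.0 ± 0.302 (SD, n = 3). Neighbours among Insig2, Srebf2, Sqle and Hmgcs1 lay within the sum of their SDs. At the other end were Tm7sf2 at 0.636 ± 0.0148, Idi1 at 1.39 ± 0.166 and Acat2 at 1.59 ± 0.232 CPM per kilobase, and Idi1 and Acat2 overlapped within their SDs. The median of the 27 genes was 9.48 CPM per kilobase of exon. The order depended on the length used: per kilobase of mean transcript length, Insig2 led at 72.4 ± 1.04, followed by Fdps at 61.5 ± 1.07 and Mbtps2 at 58.3 ± 1.49, and the lowest were Acat2 at 2.38 ± 0.346 and Tm7sf2 at 2.50 ± 0.0583. Idi1, Acat2 and Tm7sf2 were the 3 lowest by either length.

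Other genes of sterol handling, 42 in all and listed by function with earlier results of these data known, were divided in direction. 40 were tested, of which 8 were called higher, 8 lower and 24 were not called, beside 16.5% and 14.1% of all tested genes, with a median log2 fold change of 0.015. Pgrmc1 was listed at 0 counts in all libraries and Gramd1c had too few counts to be tested. Among genes of transport, storage and esterification 4 of 10 were higher and 3 lower, and among those of isoprenoid use 1 of 12 higher and 2 lower. Of the 6 SREBP2 targets and electron donors 2 were higher and none lower, and none was lower at an unadjusted p-value under 0.05. Of 4 co-factor genes none was higher and 2 were lower, and none was higher at an unadjusted p-value under 0.05. None of the 40 genes reached 1.5-fold with a call.

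Srebf1, which encodes the related SREBP1 of fatty acid synthesis, was at 65.2, 64.5 and 59.2 CPM in the CON libraries and at 87.5, 87.8 and 85.9 CPM in the sTREM-1 libraries. Its log2 fold change was 0.47 ± 0.039, with an adjusted p-value of 7.1e-11 in edgeR's quasi-likelihood test. Lipa, the lysosomal acid lipase that frees cholesterol from its esters, was at 214.1, 219.6 and 212.1 CPM and then at 266.9, 272.4 and 265.7 CPM, higher by 0.32 ± 0.026 (edgeR adjusted p = 4.1e-11). Rdh11, a retinol dehydrogenase and SREBP target, was at 31.4, 33.2 and 32.7 CPM and then at 37.6, 40.0 and 40.4 CPM, higher by 0.28 ± 0.050 (edgeR adjusted p = 5.4e-05). These were the largest rises among the 40.

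Among the falls, Nfyb, which encodes a subunit of NF-Y, was at 32.6, 34.1 and 33.4 CPM in the CON libraries and at 26.1, 27.3 and 28.1 CPM in the sTREM-1 libraries. Its log2 fold change was -0.30 ± 0.053 (edgeR adjusted p = 5.6e-05). Nceh1, a cholesteryl ester hydrolase of macrophages, was at 260.2, 260.3 and 259.1 CPM and then at 222.6, 221.1 and 211.6 CPM, with a log2 fold change of -0.25 ± 0.026 (edgeR adjusted p = 8.4e-09). Of these genes, Lipa and Nceh1 both free cholesterol from its esters, and Lipa was higher while Nceh1 was lower.

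**Figure D4:**
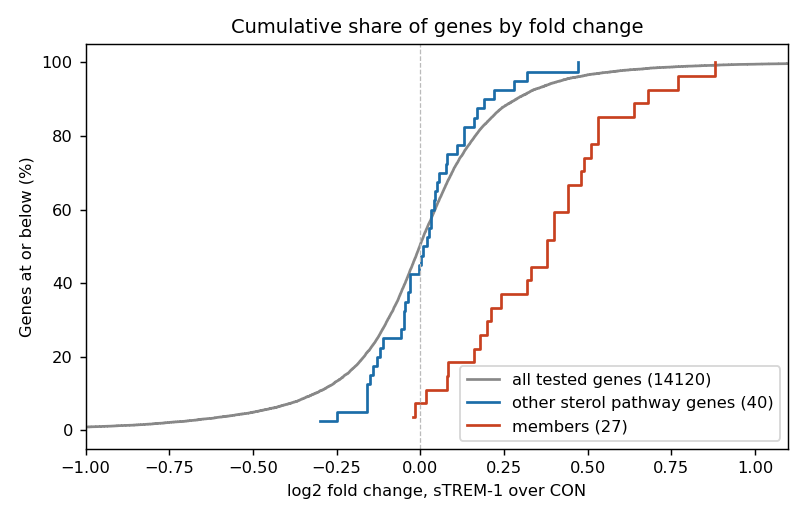
Cumulative share of genes (%) by log2 fold change, sTREM-1 over CON, for the 27 sterol synthesis and SREBP2 pathway genes (red, labelled members), the 40 other tested sterol pathway genes (blue) and all 14120 tested genes (grey). The red curve lies to the right with a median of 0.38, against 0.015 and -0.0017 for the others; the 27 genes were chosen on this contrast.

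Promoter sequence was not read in choosing the genes. The list was named for the SREBP2 pathway, however, and most of its promoters are known for such motifs, as described above. The shares below are therefore not independent of the choice. Of the 27 genes, 23 had at least 1 promoter in the RefSeq table, 29 promoters in all, and Fdft1, Sqle, Stard4 and Fdps had none. The sterol regulatory element motif TCACNCCAC was found in 1 of 23 genes (4.35%), beside 1.44% of all 27025 genes with a promoter and 1.38% of the 9714 tested genes with one. Allowing 1 mismatch, 10 of 23 genes held it (43.5%), beside 26.7% of all genes and 29.4% of tested genes. CCAAT, the NF-Y motif, was found in 19 of 23 genes (82.6%), beside 41.1% of all genes and 43% of tested genes. GGGCGG, the Sp1 motif, was found in 20 of 23 genes (87%), beside 38.2% of all genes and 65.9% of tested genes. All motifs were read on both strands, and motifs overlapped in 2 genes, Insig2 (Sp1 with the element at 1 mismatch) and Msmo1 (CCAAT with the element at 1 mismatch). A match is a description of the letters in the window and not a binding site.

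In the promoters printed above, the Hmgcs1 promoter held CCAAT 4 times, all on the opposite strand, on both sides of the exact element. Srebf2 held TCACCCCAT at -162 with CCAAT on the opposite strand at -135. Cyp51 held TGACGCCAC at -108 with CCAAT at -29. Insig1 held GTGGCGTGT, the element with 1 mismatch, at -9 and CCAAT at -216, both on the opposite strand. The 4 genes without CCAAT in the window were Acat2, Mbtps1, Mbtps2 and Scap, so that Acat2, with the largest fold change, lacked it. The median log2 fold change was 0.38 in the 19 genes with CCAAT and 0.14 in the 4 without. It was 0.46 in the 10 genes with the element at up to 1 mismatch and 0.24 in the 13 without. Those 10 genes ran from 0.016 for Insig2 to 0.88 for Acat2, and Hmgcs1, with the exact element, was at 0.18. The 4 genes with no promoter in the table had a median of 0.60 and stand on neither side. Of the 4 genes without CCAAT, Mbtps1, Mbtps2 and Scap belong to SREBP2 control, so motif and role cannot be told apart. All these medians come from the contrast that chose the genes, so nothing is read from them.

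**Figure D5:**
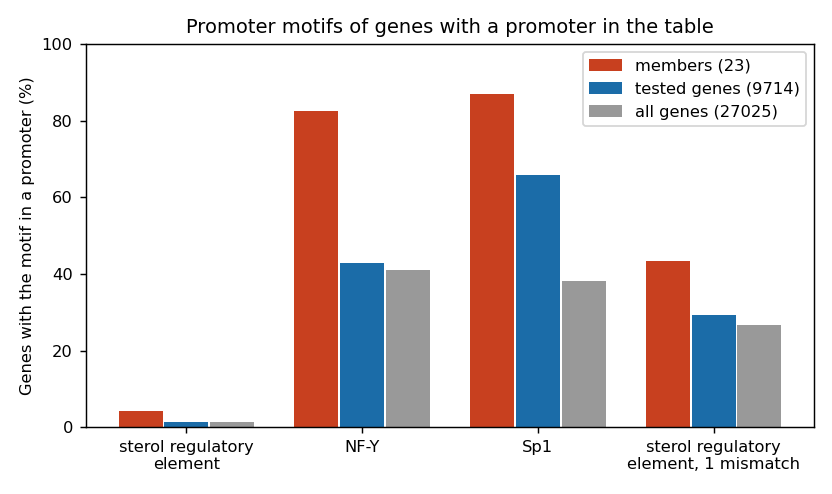
Share of genes (%) whose promoter window holds each motif, for the 23 sterol genes with a promoter in the table (red, labelled members), 9714 tested genes (blue) and 27025 genes (grey). CCAAT was found in 82.6% of the sterol genes, 43% of tested genes and 41.1% of all genes, and the exact sterol regulatory element was rare in all 3 sets.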

How the data were processed

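The data were RNA-seq of 3 CON and 3 sTREM-1 libraries of BV2 cells, grouped by their labels. The labels and the table give 3 samples per group, whereas the study's text gives n = 4 for this experiment, and the reason is not given in the sources used here. The authors checked reads with FastQC and quantified them with RSEM, and the table they deposited holds raw counts, as whole numbers, for each gene symbol. The submitters' processing notes name HISAT2 2.0.4 and the human builds hg19 and GRCh38, whereas the symbols are mouse; the mouse build, annotation and strand setting are not given in the sources used here. Reads of overlapping genes may therefore have been split. 23335 of 46095 symbols had 0 counts in all libraries, among them Aif1 and Pgrmc1. Whether such symbols were not expressed or not counted was not tested.

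Genes passed filterByExpr at a minimum count of 10. After TMM scaling, the groups were compared with edgeR 4.0.16 (quasi-likelihood, no covariate, R 4.3.3), with Benjamini-Hochberg adjustment over 14120 genes. Standard errors came from the log2 fold change and the F statistic. The procedure was tested on simulated data. The counts in each library limit genes of few counts, such as Acat2 and Idi1.

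The sterol genes and gene lists were chosen with earlier results of these data known. All 27 sterol genes are named; values in every library are given for at most 4 genes of each role with the largest absolute log2 fold change, and of other sterol genes at most 3 called per direction. Promoters are printed for genes with the exact sterol regulatory element, and 3 others were added after values were seen. Gene lengths and strands came from GENCODE M21 (GRCm38), promoters from RefSeq (GRCm38.p6).

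Alternatives were RLE size factors, other count filters, DESeq2 1.42.0, a replicate block, leaving out each library, a minimum 1.5-fold change, mean transcript length and 1 motif mismatch. The promoters of tested genes as a background were added after seeing the data. Some genes of the pathway are not reported here.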

Additional observations from a re-analysis of the deposited data

How the results depend on the processing

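Over 11 alternative fits of the 27 sterol genes, 291 values of single genes kept their direction and side of the threshold, 3 turned direction, 2 lost their call and 1 gained it. Leaving out 1 library, the log2 fold change of Ggps1 ran from -0.055 to 0.0073 and that of Insig2 from -0.012 to 0.062, both around 0 and not called (Insig2 was -0.0062 without sTREM-1 replicate 3). Idi1 lost its call without CON replicate 1 (0.28) or sTREM-1 replicate 1 (0.34), and Scap gained one without sTREM-1 replicate 2 (0.15). The count of sterol genes called higher ran from 20 to 22 and their median log2 fold change from 0.37 to 0.41. Over all tested genes, the count called higher ran from 1965 to 2474. Since this contrast chose the sterol genes, nothing is read from their range. With a call and at least a 1.5-fold change, 4 sterol genes were higher, 0 of the other sterol pathway genes were higher and 0 lower, and 130 tested genes were higher and 171 lower, because that setting adds a fold threshold. Per kilobase of mean transcript length the median level was 21.8 CPM, since those lengths are shorter. With 1 mismatch, 10 genes held the sterol regulatory element, since the rule is looser.

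Replicate numbers did not pair the libraries. Deviations of libraries with the same number correlated at -0.018, -0.033 and -0.014. No CON library correlated best with the sTREM-1 library of its own number. With the replicate block, 21 sterol genes were called higher and 0 lower, and 2474 tested genes were higher and 2139 lower. Depth limits the low genes: Acat2, Idi1, Mvk and Tm7sf2 had the largest standard errors of the 27.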
